A study of Mus musculus with 6 samples.

Results

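The clustered protocadherins were described in the cerebellar vermis of LINE-1a and dCas mice. The members are every row of the gene table whose symbol is Pcdha, Pcdhac, Pcdhb, Pcdhga, Pcdhgb or Pcdhgc followed by a number, which gave 57 of 21927 rows. They comprise 11 alpha genes, 22 beta genes, 12 gamma A genes, 7 gamma B genes and 5 C-type genes (Pcdhac1, Pcdhac2, Pcdhgc3, Pcdhgc4 and Pcdhgc5). On GRCm38 (GENCODE release M21) all lie on the plus strand of chromosome 18, with the alpha rows at chr18:36930184-37187661, the beta rows at chr18:37264938-37524479 and the gamma rows at chr18:37661793-37841873. A mean of at least 10 normalized counts over the 6 libraries was required for testing, which 56 of the 57 passed. Pcdhb1 was left out, with 3.73 ± 2.09 normalized counts in LINE-1a mice and 2.71 ± 1.28 in dCas mice (SD, n = 3 each).

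The study compared 3 LINE-1a mice, in which the retrotransposon LINE-1 is activated by the submitters' description, with 3 dCas mice as controls. All were 8 weeks old, and total RNA of the vermis, the midline of the cerebellum, was sequenced. The agent that activates LINE-1, the promoter that drives it and the background strain are not given in the labels. By its Y-linked genes, LINE-1a 1 and LINE-1a 2 were female, whereas LINE-1a 3 and all 3 dCas mice were male.

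Clustered protocadherins are cell adhesion proteins that bind copies of themselves on neighbouring membranes, and each neuron displays its own combination of them. In the alpha and gamma clusters, each variable exon has its own promoter and encodes the extracellular, transmembrane and first cytoplasmic parts, and is spliced to constant exons shared by the whole cluster. Beta genes consist of 1 exon each, with no constant exons. Alpha, beta, gamma A and gamma B promoters are chosen largely at random in each neuron, through looping to distant enhancers by CTCF and cohesin, whereas C-type promoters are mostly active more broadly. In Purkinje cells, which carry the output of the cerebellar cortex, gamma protocadherins help to keep the dendrites of a cell apart from each other.

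Whole-table measures were as follows. The gene table held 23483158 (LINE-1a 2) to 33445789 (dCas 3) reads per library. Granule cell markers summed to 93723 to 98444 normalized counts in LINE-1a mice and 96269 to 112568 in dCas mice, and Purkinje cell markers to 147392 to 179488 in LINE-1a mice and 207008 to 242707 in dCas mice, with 0 of the listed cerebellar markers at 0 in all libraries. Choroid plexus markers were spread within both groups, from 1978 to 107590 in LINE-1a mice and from 1473 to 85796 in dCas mice. In RNA from whole tissue, fewer cells of a type and less RNA per cell cannot be told apart.

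How the rows were counted decides what an alpha or gamma value measures. The values behaved as counts over whole gene spans on either strand. Among pairs in which 1 annotated gene lies inside another outside these clusters, the outer gene had at least the count of the inner one in every library for 234 of 234 pairs, including 182 of 182 on opposite strands and 110 of 110 of these whose inner gene touches no exon of the outer one. Each annotated alpha or gamma gene spans from its own start to the end of its cluster, to within 4 bases, so the rows are nested. Along the chromosome, 12 of 12 steps between neighbouring alpha rows and 21 of 21 steps between gamma rows went down in all 6 libraries. Pcdha1 therefore holds the reads of the whole alpha cluster, and Pcdhga1 those of the whole gamma cluster.

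**Figure D1:**
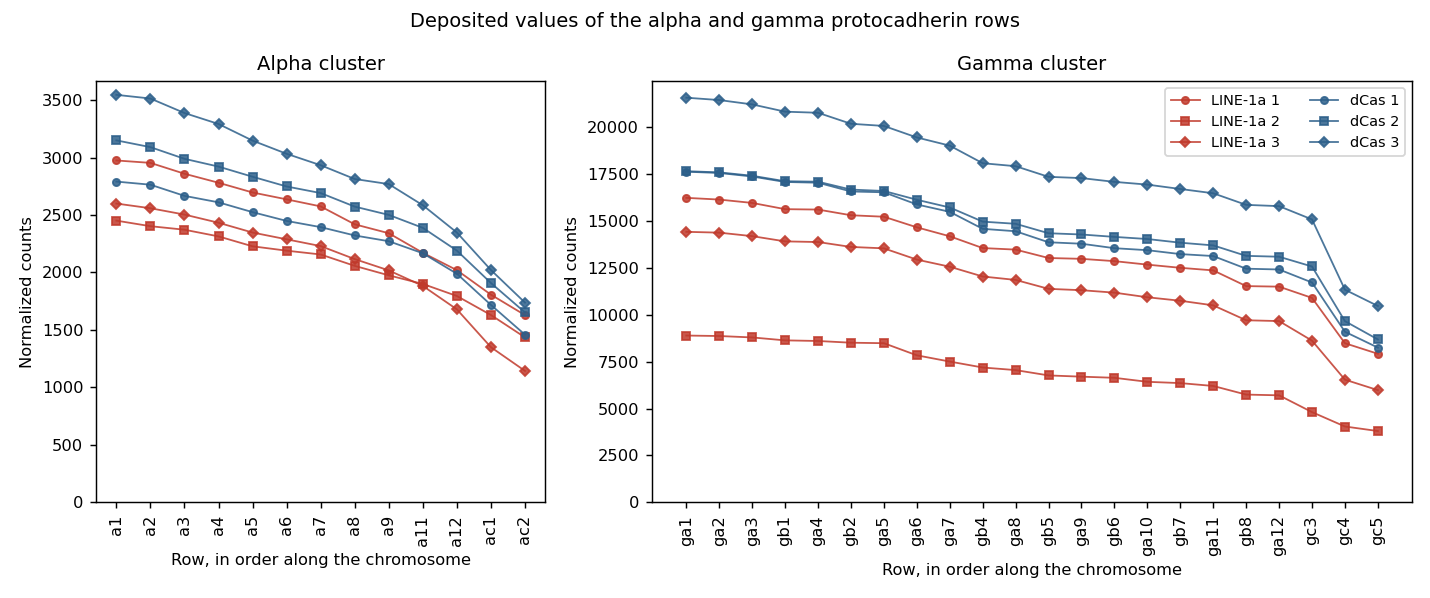
Deposited normalized counts (vertical axes) of the alpha rows (left) and gamma rows (right), in order along the chromosome, with 1 line per library (LINE-1a red, dCas blue). Every line descends from the first row to the last, and in the gamma cluster the 3 LINE-1a lines lie below the 3 dCas lines at every row.

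For the alpha and gamma clusters, the reads of a row minus those of the next row downstream were therefore used as well, called a segment here. A segment holds the reads that lie between 1 start and the next, thus the body of that variable exon and the following intron. Reads that cross a splice junction into the constant exons are not in it, and intronic reads of transcripts begun upstream are. The last rows, Pcdhac2 and Pcdhgc5, also hold the constant exons, and held 51.9% and 46.3% of their cluster's reads (mean of 6 libraries). The annotation has 2 genes named Pcdha11, starting at 37005203 and 37010712 and both ending with the cluster, and which of them the single Pcdha11 row counts is not known. If it is the later one, the Pcdha9 segment also holds the variable exon at the earlier start, so the Pcdha9 and Pcdha11 segments cannot be ascribed to 1 variable exon each. Pcdha10 was not analysed here.

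Taken as whole clusters, all 3 were lower on average in LINE-1a mice, and the groups separated in beta and gamma but not in alpha. The alpha cluster had 2974, 2451 and 2600 normalized counts in LINE-1a mice, against 2791, 3149 and 3545 in dCas mice. The beta rows summed to 3777, 2071 and 3059 in LINE-1a mice, against 4039, 3974 and 5388 in dCas mice. The gamma cluster had 16226, 8890 and 14416 in LINE-1a mice, against 17619, 17645 and 21561 in dCas mice. LINE-1a 2 was the lowest library in each cluster and dCas 3 the highest, while LINE-1a 1 lay above dCas 1 in alpha and just below the lowest dCas library in beta. The LINE-1a means were 84.6% of the dCas means for alpha, 66.5% for beta and 69.6% for gamma.

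None of the 56 members passed an adjusted p of 0.05 in limma's moderated test over 15800 features, in which 0.146% of all features were called and 0.0127% were called lower. Fold changes below are LINE-1a over dCas on the log2(normalized count + 1) scale. At an unadjusted p under 0.05, 28 of 56 members were lower and 0 higher, against 7.35% of all features lower and 7.94% higher. By edgeR's quasi-likelihood test 0 members were called, where 0.146% of all features were called and 0.0127% called lower. By that test 14 members were under an unadjusted p of 0.05. The share of all features under that edgeR p was not computed, so the 14 cannot be set against a background. By DESeq2 1 member, Pcdhb22, was called, where 0.899% of all features were called and 0.266% called lower. The fold change was below 0 for 55 of 56 members, against 47.1% of all features, with a median of -0.56 for the members and 0.03 for all features. All LINE-1a libraries lay below all dCas libraries in 33 of 56 members, against 12.3% of all features, and above them in 0 of 56, against 9.88%. Without LINE-1a 2, 54 of 56 members were below 0 (median -0.31), against 48.4% of all features. The 35 alpha and gamma rows share most of their reads, so these counts over rows are not counts of separate measurements.

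The beta genes are not nested. Runs of 50 bases also present in another clustered protocadherin made up a median of 4.26% of a beta gene's runs and at most 11.99%. For runs of 100 bases the median was 0.2075% and the maximum 7.729% (Pcdhb21). Pcdhb21 and Pcdhb22 overlap in the annotation, from 37517871 to 37518325, which leaves 6154 of 6609 exon bases to Pcdhb22 alone. Under counting over whole spans, reads in that overlap fall in both rows. The read length is not given in the labels, so how far reads are shared elsewhere between beta genes is not known. Per kilobase of exon, averaged over the 6 libraries, the level was highest for Pcdhb9 (148 normalized counts) and Pcdhb20 (146), followed by Pcdhb16 (79.0), and lowest among those tested for Pcdhb3 (14.8). The 2 highest differ by less than the spread between libraries.

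Of 21 tested beta genes, 20 had a fold change below 0, against 47.1% of all features. The median of the beta genes was -0.64, with a range of -1.32 to 0.04. In 11 of them all LINE-1a libraries lay below all dCas libraries, against 12.3% of all features, and in 0 above them, against 9.88%. At an unadjusted p under 0.05, 11 beta genes were lower and 0 higher in the limma fit, against 7.35% and 7.94% of all features.

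Pcdhb2 had the largest difference among the tested beta genes. It had 39.6, 13.7 and 25.7 normalized counts in LINE-1a mice, against 70.1, 59.6 and 56.0 in dCas mice. Its highest LINE-1a library was below its lowest dCas library, with a log2 fold change of -1.32 (SE 0.37; limma adjusted p = 0.325). Pcdhb10 had 68.6, 31.5 and 51.3 in LINE-1a mice, against 129, 74.3 and 125 in dCas mice, a log2 fold change of -1.13 (SE 0.34). Its groups were separate as well, by a margin smaller than the spread within either group.

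Pcdhb9, the beta gene of highest level per kilobase, had 421, 163 and 318 normalized counts in LINE-1a mice, against 554, 550 and 706 in dCas mice. The groups did not overlap, and the log2 fold change was -1.10 (SE 0.31; limma adjusted p = 0.325). Pcdhb22 had 148, 116 and 140 in LINE-1a mice, against 214, 222 and 271 in dCas mice. Both groups were tight, with a log2 fold change of -0.80 (SE 0.19), which is the smallest adjusted p of any member in limma (0.317) and passed only in DESeq2 (adjusted p = 0.0253). Pcdhb16, also separate, had 402, 291 and 325 in LINE-1a mice, against 490, 451 and 518 in dCas mice, a log2 fold change of -0.53 (SE 0.17).

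Not every abundant beta gene separated. Pcdhb20 had 576, 236 and 416 normalized counts in LINE-1a mice, against 537, 627 and 732 in dCas mice. LINE-1a 1 exceeded dCas 1, and the log2 fold change of -0.71 (SE 0.29) was -0.36 without LINE-1a 2. Pcdhb18 was the only tested beta gene with a fold change above 0, with 104, 74.2 and 87.6 in LINE-1a mice, against 71.7, 92.7 and 93.4 in dCas mice. Those values were mixed between the groups, with a log2 fold change of 0.04 (SE 0.23). Pcdhb4, Pcdhb11 and Pcdhb21 also lay near 0, at -0.04, -0.07 and -0.07. These 3 were chosen after their values were seen.

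**Figure D2:**
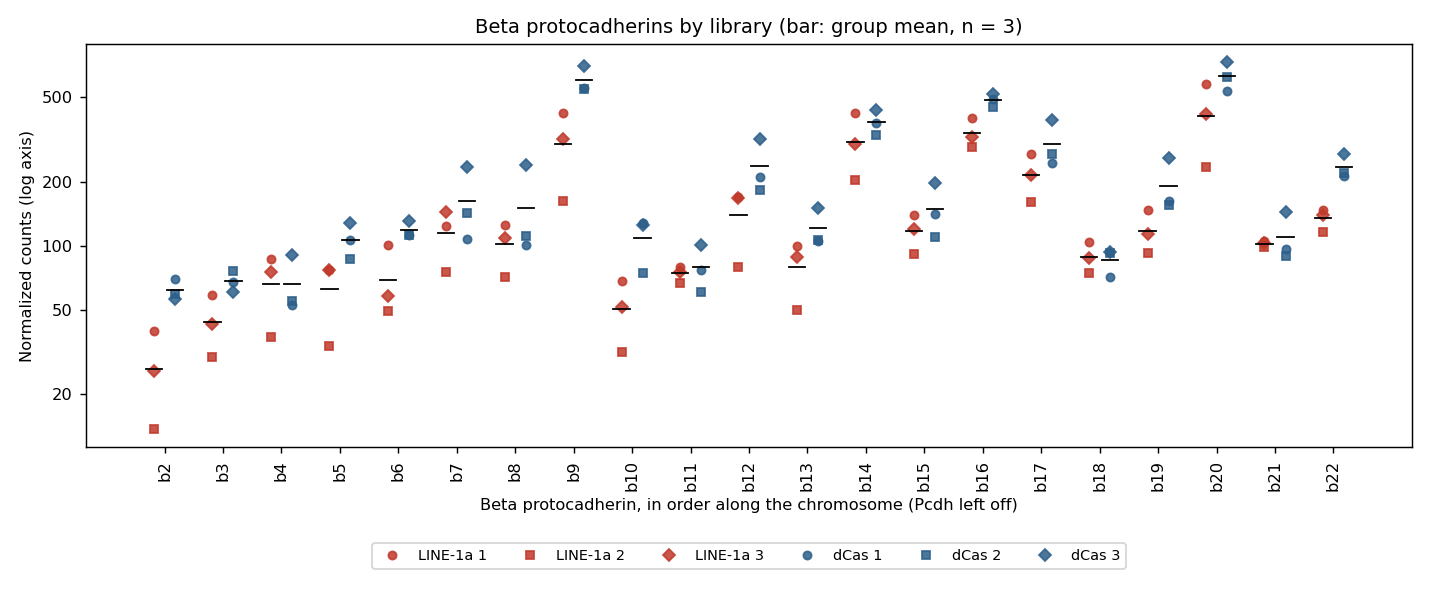
Normalized counts (log axis) of the 21 tested beta genes in order along the chromosome, with the 3 LINE-1a libraries left (red) and the 3 dCas libraries right (blue), and a bar at each group's mean. LINE-1a 2 (red square) is the lowest point in 18 of 21 genes. In 11 genes, Pcdhb2, Pcdhb9 and Pcdhb22 among them, the red points lie wholly below the blue ones.

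One library weighed on the size of these differences. As median deviation from the dCas mean over the 21 beta genes, LINE-1a 1 lay at -0.23, LINE-1a 2 at -1.01 and LINE-1a 3 at -0.46 on the log2 scale, against -0.13, -0.16 and 0.27 in dCas 1, dCas 2 and dCas 3. LINE-1a 2 was the lowest library in 18 of 21 beta genes and dCas 3 the highest in 17. Without LINE-1a 2 the median fold change of the beta genes was -0.36, with 19 of 21 below 0. For 387 tested single-exon genes outside the clusters, the library medians were 0.05, 0.07 and -0.12 in LINE-1a mice, against -0.10, -0.01 and 0.11 in dCas mice. These genes were not matched to the beta genes, and the cause of the low beta values in LINE-1a 2 was not tested.

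Among the alpha rows as deposited, all 11 had a fold change below 0, within -0.26 to -0.20 (median -0.23), against 47.1% of all features. The groups were separate in 0 of 11, against 12.3% of all features separate and lower and 9.88% separate and higher. Every alpha row contains the reads of Pcdhac2, so these values are not separate measurements. Outside the clusters, the 3789 genes of longest span had library medians of 0.04, 0.25 and 0.19 in LINE-1a mice, against 0.12, 0.00 and -0.11 in dCas mice. With the trend in gene span and exonic share removed from each library, the median of the alpha rows was -0.41. The same step gave -0.71 in gamma A rows and -0.70 in gamma B rows, against -0.59 in each without it. Beta rows were at -0.58 and C-type rows at -0.64, against -0.64 and -0.69 without it.

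As segments, the alpha cluster was mixed. Of 11 alpha segments 9 had a fold change below 0, with a median of -0.27 and a range of -0.97 to 0.65. Of all 35 alpha, gamma and C-type segments 28 were below 0, against 47% of all features, and 0 of the 35 were called in limma (0.146% of all features in that fit; smallest adjusted p = 0.327). At an unadjusted p under 0.05, 10 of the 35 were lower and 2 higher, against 7.32% and 7.93% of all features. All LINE-1a libraries lay below all dCas libraries in 10 of the 35 (12.2% of all features) and above them in 2 (9.89%). The rule for naming genes was applied to segments after the data were seen.

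The Pcdha2 segment had 94.5, 30.6 and 55.1 normalized counts in LINE-1a mice, against 97.1, 102 and 126 in dCas mice, a log2 fold change of -0.97 (SE 0.37). The groups were separate, though LINE-1a 1 came within a few counts of dCas 1. The Pcdha5 segment had 59.7, 37.9 and 58.9 in LINE-1a mice, against 76.3, 84.6 and 115 in dCas mice, a log2 fold change of -0.81 (SE 0.28). The Pcdha8 segment ran the other way, with 77.5, 82.3 and 98.2 in LINE-1a mice, against 50.1, 72.1 and 44.0 in dCas mice. All 3 of its LINE-1a libraries were higher, with a log2 fold change of 0.65 (SE 0.26; limma adjusted p = 0.327). The alpha segments of highest count outside the C-type ones, Pcdha12, Pcdha11 and Pcdha9, had log2 fold changes of -0.37, -0.46 and -0.11, each with overlapping groups.

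As deposited, 12 of 12 gamma A rows and 7 of 7 gamma B rows had all LINE-1a libraries below all dCas libraries. The share of all features was 12.3%. The fold changes of these gamma rows ran from -0.67 to -0.55. Their medians were -0.59 in gamma A and -0.59 in gamma B, and -0.31 in each without LINE-1a 2. LINE-1a 2 was the lowest and dCas 3 the highest library in 19 of 19. Because all of these rows contain the reads of Pcdhgc3, Pcdhgc4 and Pcdhgc5, they are not separate measurements and were read again as segments.

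Gamma A and gamma B were also read as segments. Of 12 gamma A segments 9 had a fold change below 0 (median -0.51, range -1.32 to 0.38) and 4 were separate, all lower. Of 7 gamma B segments 5 were below 0 (median -0.23, range -0.47 to 0.82) and 1 was separate, higher. Among all features in that fit, 47% were below 0, 12.2% separate and lower, and 9.89% separate and higher. Without LINE-1a 2 the medians were -0.19 in gamma A, with 8 of 12 below 0, and -0.11 in gamma B, with 4 of 7 below 0. Summed, the gamma A segments had 4353 ± 819 normalized counts in LINE-1a mice and 5168 ± 600 in dCas mice, and the gamma B segments 716 ± 165 in LINE-1a mice and 654 ± 162 in dCas mice (SD, n = 3 each). The difference between the groups was no larger than the larger SD in either sum. Whether the 2 classes differ from each other was not tested.

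The Pcdhga4 segment had 303, 91.9 and 261 normalized counts in LINE-1a mice, against 467, 420 and 586 in dCas mice. The groups were well apart, with a log2 fold change of -1.32 (SE 0.39; limma adjusted p = 0.327). The Pcdhga7 segment had 627, 316 and 521 in LINE-1a mice, against 906, 755 and 938 in dCas mice, a log2 fold change of -0.88 (SE 0.24). All 3 LINE-1a libraries were again below all dCas libraries, and without LINE-1a 2 the 2 values were -0.79 for Pcdhga4 and -0.59 for Pcdhga7. The Pcdhga9 segment, at -0.88 (SE 0.34), had overlapping groups.

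The Pcdhgb6 segment was higher in all 3 LINE-1a libraries. It had 186, 214 and 246 normalized counts in LINE-1a mice, against 106, 113 and 145 in dCas mice, a log2 fold change of 0.82 (SE 0.21; limma adjusted p = 0.327, DESeq2 adjusted p = 0.0573). Without LINE-1a 2 it was 0.82 as well. As a share of the gamma cluster's reads it held 1.75 ± 0.63% in LINE-1a mice and 0.64 ± 0.04% in dCas mice (SD, n = 3 each). The deposited Pcdhgb6 row gives a log2 fold change of -0.59, because it also holds the reads of every segment downstream.

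Of the other gamma segments, Pcdhga5, Pcdhgb7, Pcdhga11 and Pcdhga12 had a fold change above 0, each with overlapping groups. The Pcdhga11 segment had 837, 460 and 795 normalized counts in LINE-1a mice, against 674, 558 and 618 in dCas mice, with LINE-1a 2 the lowest of the 6 and a log2 fold change of 0.13 (SE 0.23). Its share of the gamma cluster was 5.28 ± 0.20% in LINE-1a mice and 3.28 ± 0.49% in dCas mice. The Pcdhga12 segment, which is 40784 bases long with its exon and the intron that follows, had 599, 894 and 1043 in LINE-1a mice, against 694, 520 and 708 in dCas mice. LINE-1a 1 fell within the dCas range there, and the log2 fold change was 0.38 (SE 0.22). Pcdhga5 was at 0.08 (SE 0.17) and Pcdhgb7 at 0.19 (SE 0.32). Pcdhgb8, which lies between Pcdhga11 and Pcdhga12, was at -0.47 (SE 0.29) with overlapping groups, and Pcdhga10, just before Pcdhgb7, at -0.71 (SE 0.35) with all LINE-1a libraries below all dCas libraries. Shares of a cluster depend on its other segments, so a higher share can go with an equal or lower level.

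**Figure D3:**
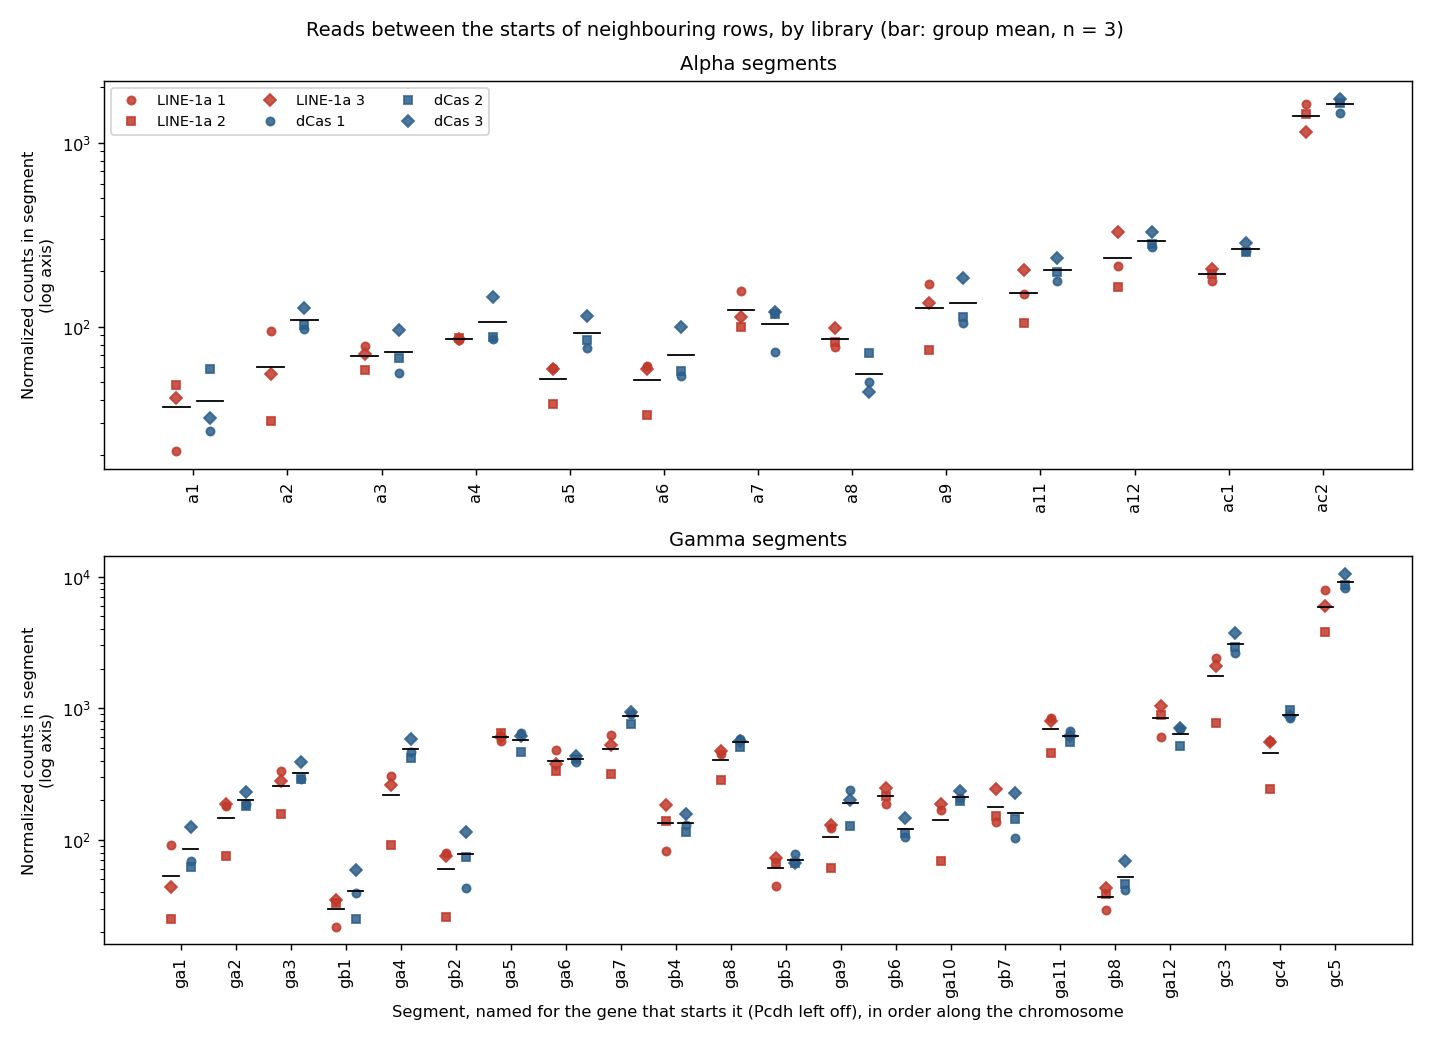
Normalized counts per segment (log axes) for the alpha cluster (top) and gamma cluster (bottom), with the 3 LINE-1a libraries left (red) and the 3 dCas libraries right (blue), and a bar at each group's mean. Red points lie wholly below blue ones in 10 of 35 segments: Pcdha2, Pcdha5, Pcdhac1, Pcdhga4, Pcdhga7, Pcdhga8, Pcdhga10, Pcdhgc3, Pcdhgc4 and Pcdhgc5. They lie wholly above in 2, Pcdha8 and Pcdhgb6.

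The C-type isoforms were described apart, and 5 of 5 of their segments were below 0 (median -0.69, range -1.07 to -0.22). In 4 of 5 the groups were separate, all lower in LINE-1a mice. Among all features 47% were below 0 and 12.2% were separate and lower. The Pcdhgc5 and Pcdhac2 values among the 5 C-type segments also hold constant exons of all isoforms of their cluster. The C-type median is the value of Pcdhgc5. Without LINE-1a 2 the median was -0.45, still with 5 of 5 below 0. The 3 gamma C-type segments had lower values than the alpha ones in fold change.

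Pcdhgc4 is needed in mice for the survival of many neurons, interneurons among them. Its segment had 563, 242 and 558 normalized counts in LINE-1a mice, against 843, 974 and 868 in dCas mice. The groups were well separated and the dCas mice close together, with a log2 fold change of -1.07 (SE 0.30; limma adjusted p = 0.327), or -0.67 without LINE-1a 2. The Pcdhgc3 segment had 2415, 767 and 2079 in LINE-1a mice, against 2625, 2912 and 3743 in dCas mice, a log2 fold change of -0.96 (SE 0.37), or -0.45 without LINE-1a 2. LINE-1a 1 came close to dCas 1, and LINE-1a 2 lay far below the other 5 libraries.

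The Pcdhgc5 row, which includes the gamma constant exons and so reads of every spliced gamma isoform, had 7918, 3802 and 5982 normalized counts in LINE-1a mice, against 8248, 8682 and 10465 in dCas mice. Its groups did not overlap, with a log2 fold change of -0.69 (SE 0.26), or -0.40 without LINE-1a 2. Reads of the Pcdhgc5 exon itself and of the constant exons cannot be told apart in this row.

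In the alpha cluster, the Pcdhac1 segment had 178, 194 and 206 normalized counts in LINE-1a mice, against 259, 256 and 283 in dCas mice. These were the tightest groups of the C-type segments, with a log2 fold change of -0.47 (SE 0.17; limma adjusted p = 0.327) and -0.47 without LINE-1a 2. The Pcdhac2 row, which includes the alpha constant exons, had 1629, 1436 and 1144 in LINE-1a mice, against 1459, 1652 and 1738 in dCas mice. LINE-1a 1 was above dCas 1 and close to dCas 2, with a log2 fold change of -0.22 (SE 0.17). In mice Pcdhac2 is known for spacing the axons of serotonergic neurons.

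**Figure D4:**
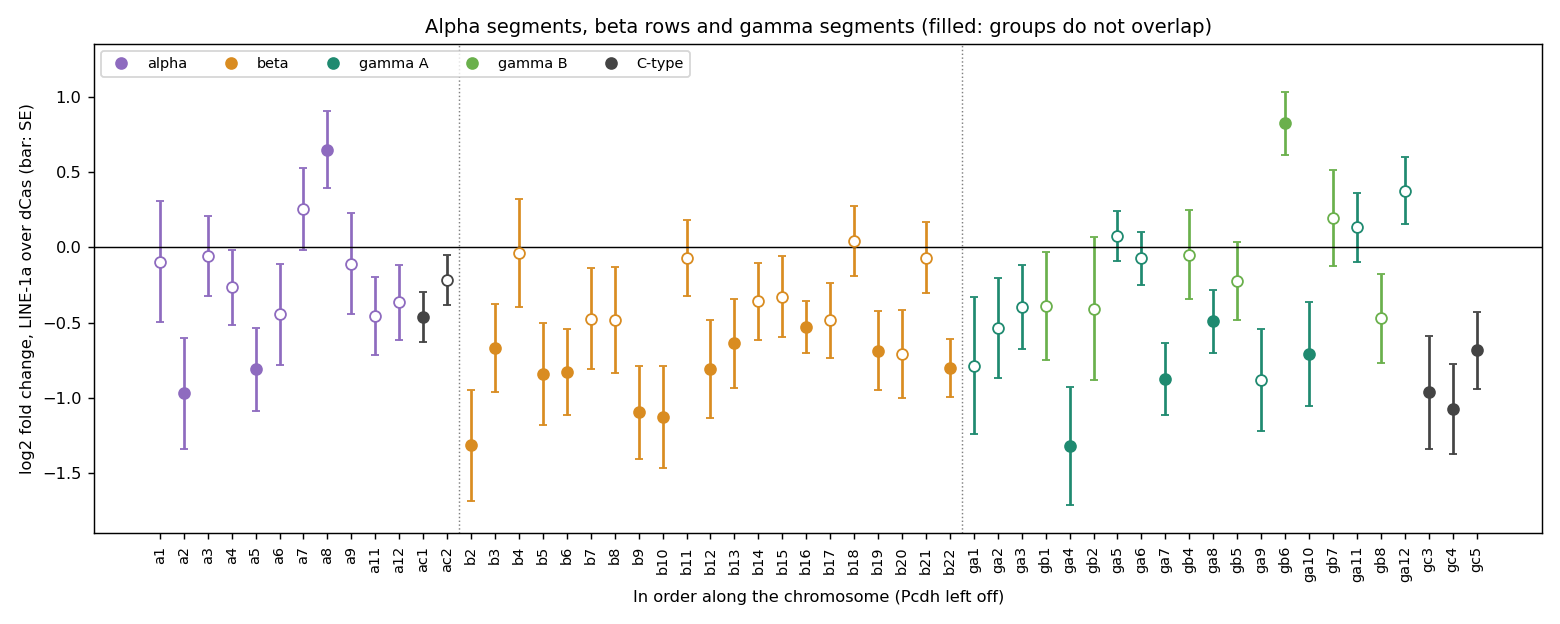
Log2 fold change, LINE-1a over dCas, with its standard error, for alpha segments, beta genes and gamma segments in order along the chromosome, coloured by class and filled where the groups do not overlap. Most points lie below 0, and the filled points above 0 are Pcdha8 and Pcdhgb6.

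Read library by library, LINE-1a 2 was lowest in every class of segments but gamma B. The C-type segments had median deviations from the dCas mean of -0.34, -1.26 and -0.56 in LINE-1a 1, 2 and 3, against -0.14, -0.05 and 0.11 in dCas 1, 2 and 3. The gamma A segments had -0.11, -1.21 and -0.20 in LINE-1a mice, against 0.02, -0.17 and 0.14 in dCas mice. The gamma B segments had -0.65, -0.08 and 0.07 in LINE-1a mice, against -0.19, -0.09 and 0.42 in dCas mice, with LINE-1a 1 the lowest. The alpha segments had -0.19, -0.78 and 0.01 in LINE-1a mice, against -0.27, -0.08 and 0.25 in dCas mice. Over all 35 segments without LINE-1a 2, 24 were below 0, with a median of -0.24.

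**Figure D5:**
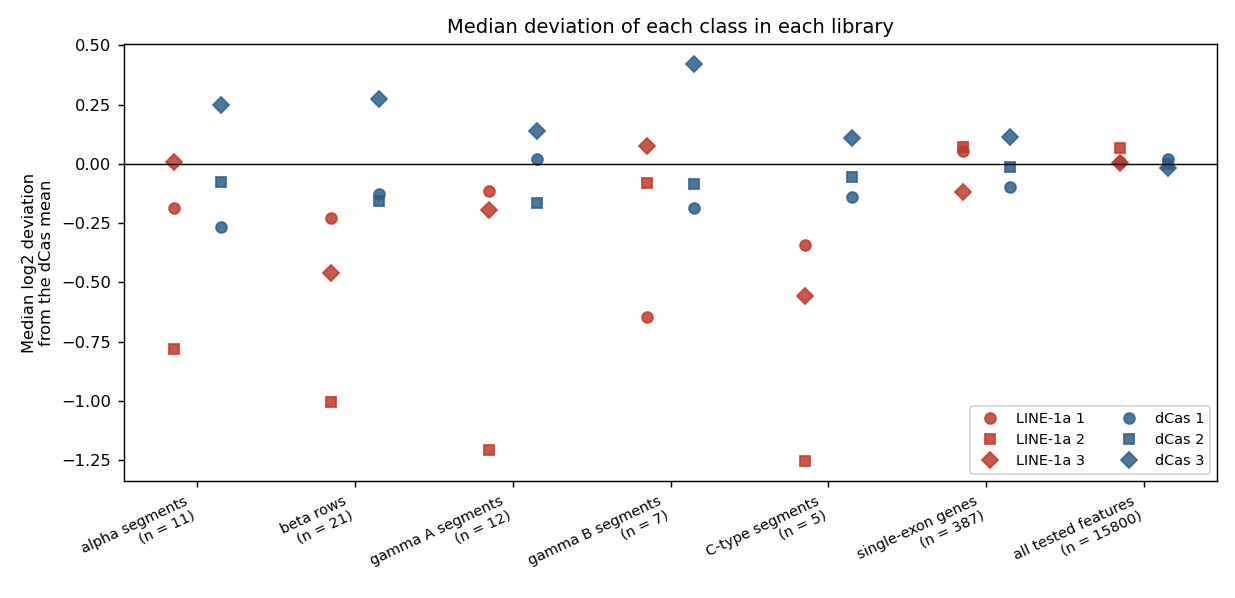
Median log2 deviation from the dCas mean in each library, for the 5 classes, for single-exon genes outside the clusters and for all tested features (LINE-1a red, left; dCas blue, right). LINE-1a 2 lies near -1 or below in beta, gamma A and C-type members. The medians of the 387 single-exon genes outside the clusters lie between -0.12 and 0.11 in all 6 libraries.

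The summed astrocyte and oligodendrocyte markers were also lowest in LINE-1a 2, as were the summed Purkinje cell, microglia, endothelial and brainstem markers. Sums of granule cell markers and of molecular layer interneuron and Golgi cell markers were lowest in LINE-1a 3. That of choroid plexus markers was lowest in dCas 3. All 8 astrocyte and Bergmann glia markers had a fold change below 0 (median -0.52), and their summed level ran from 50578 to 104934 normalized counts in LINE-1a mice and from 98628 to 115235 in dCas mice. Of 7 oligodendrocyte markers 6 were below 0 (median -0.64), with sums of 124991 to 284770 in LINE-1a mice and 266756 to 351429 in dCas mice. In LINE-1a 2 the median deviations of the astrocyte and oligodendrocyte lists were -1.07 and -1.23. Medians were -0.39 for 8 Purkinje cell markers, -0.33 for 8 molecular layer interneuron and Golgi cell markers, -0.51 for 5 endothelial markers and 0.07 for 9 granule cell markers. The medians were 0.13 for 6 microglia markers, 1.32 for 7 choroid plexus markers and -0.83 for the 3 tested of 8 brainstem markers, and 0 markers of any list were called in limma. The part of these cell types in the protocadherin values was not tested.

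Sex cannot be told apart from the group for LINE-1a 1 and LINE-1a 2. With sex as a covariate, the comparison rests on 1 LINE-1a library, LINE-1a 3, against the 3 male dCas libraries, and the lone library is assumed to vary like the others. On that basis the median of the members was -0.40, with 54 of 56 below 0. With alpha and gamma as segments it was -0.25, with 40 of 56 below 0, and the medians of the alpha segments (0.0059) and gamma B segments (0.075), which are those of LINE-1a 3 against the dCas mean, were above 0.

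Genes that act on the clusters were read from the same fit, and 0 were called in limma. Among all features 47.1% were below 0, and 12.3% had all LINE-1a libraries below all dCas libraries. Of 17 tested genes for CTCF, cohesin and its loading and release factors, which bring enhancers to the chosen promoters, 3 were below 0, with a median of 0.24, and 1 was lower at an unadjusted p under 0.05, against 7.35% of all features, a share close to the background. That was Wiz, a zinc finger protein found at loop anchors with CTCF, with 912, 736 and 837 normalized counts in LINE-1a mice, against 936, 1058 and 1463 in dCas mice (log2 fold change -0.45, SE 0.19). Its groups were separate by a small margin. Wapl, which releases cohesin, and Pds5a, its partner, had log2 fold changes of 0.32 (SE 0.15) and 0.39 (SE 0.18).

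Of 19 genes for DNA methylation and silencing, 7 were below 0 (median 0.12), against 47.1% of all features. In this list 1 gene was lower and 0 higher at a limma unadjusted p under 0.05, against 7.35% and 7.94% of all features. Dnmt1, which maintains DNA methylation, had 2374, 755 and 1950 normalized counts in LINE-1a mice, against 2624, 2650 and 2880 in dCas mice, a log2 fold change of -0.84 (SE 0.36). The groups were separate, and the low value was again that of LINE-1a 2. Smchd1, which in mice represses clustered protocadherin genes, had 778, 1115 and 976 in LINE-1a mice, against 815, 737 and 682 in dCas mice, a log2 fold change of 0.35 (SE 0.17) with overlapping groups. Rcor1, a corepressor that acts with REST, was at 0.33 (SE 0.16).

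Of 8 genes of the proteases that cut clustered protocadherins, 6 were below 0 (median -0.19), against 47.1% of all features. In this list 1 gene was lower and 0 higher at a limma unadjusted p under 0.05, against 7.35% and 7.94% of all features. Aph1b, a gamma-secretase subunit, had 1085, 723 and 982 normalized counts in LINE-1a mice, against 1432, 1178 and 1442 in dCas mice, with separate groups and a log2 fold change of -0.55 (SE 0.18). Adam10, the protease that sheds the extracellular part, was at 0.32 (SE 0.15), and Ncstn, another gamma-secretase subunit, at -0.40 (SE 0.20). Of 23 intracellular partners and effectors 10 were below 0 (median 0.08), and 2 were higher at an unadjusted p under 0.05, against 7.94% of all features, a share close to the background. Fyn, a tyrosine kinase, was at 0.42 (SE 0.17), Pik3ca, a lipid kinase subunit, at 0.35 (SE 0.15), and Nlgn1, a synaptic adhesion protein, at 0.62 (SE 0.29).

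The non-clustered protocadherins, single genes elsewhere in the genome, had a median of -0.04 over 11 tested of 12, with 6 below 0. Among all features 47.1% were below 0. In this list 1 gene was lower and 0 higher at a limma unadjusted p under 0.05, against 7.35% and 7.94% of all features. Pcdh20 had 118, 87.1 and 103 normalized counts in LINE-1a mice, against 185, 121 and 281 in dCas mice, separate by a small margin, with a log2 fold change of -0.85 (SE 0.30; limma adjusted p = 0.325). Pcdh17 and Pcdh11x lay at -0.22 (SE 0.14) and 0.27 (SE 0.18).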

How the data were processed

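Values were deposited by the authors as normalized counts, a signal in which each library's reads are scaled by a single size factor. Of tools, the submitters' processing notes list SAMtools 1.9, bedtools 2.27.1, STAR 2.5.3a, Bowtie2 2.2.9 and DESeq2, and of builds GRCm38 and mm10, with no role stated. Which counter, annotation and strand setting were used is not given in these sources. Every value was a whole multiple of its library's step (100% of values, tolerance 0.001 reads), so whole reads were recovered. Per the labels' protocols, libraries came from NEBNext Ultra II RNA reagents, and reads of overlapping genes on opposite strands cannot be told apart. Groups follow the labelled strain. The labels give no litters or days, and a p-value here covers only the spread among these animals.

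The main test was limma-trend 3.58.1 (R 4.3.3) on log2(normalized count + 1), two-sided, over the 15800 of 21927 features with a mean of at least 10, with Benjamini-Hochberg adjustment over all of them and a threshold of 0.05. This scale understates the change of low genes. Alternatives used edgeR 4.0.16 and DESeq2 1.42.0 on the recovered reads, other pseudocounts, filters and scaling, covariates and left-out libraries. Segments, and removal of the trend in gene span and exonic share, were added after seeing the data. Nested gene pairs required a margin of 1000 bases and a mean of at least 50. Annotation was matched by symbol for 96.3% of tested features.

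The members, lists and naming rule were chosen with earlier results of these data known. The rule took, in each of alpha, beta, gamma A and gamma B, the 3 of highest mean, the 2 of lowest and the 1 of highest fold change and the 2 of smallest p, all C-type isoforms, members left out by the filter, and up to 3 of smallest p from each other list; deposited rows of nested genes that it names are given by range.

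The labels do not say whether same-numbered libraries form pairs. Their deviations from the group mean correlated at -0.214, 0.139 and -0.095, and those of differently numbered libraries at -0.182 to 0.233. With 3 libraries per group, these values can neither show nor exclude pairing.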

Additional observations from a re-analysis of the deposited data

How the results depend on the processing

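No alternative turned the median of a class of rows. With sex as a covariate the LINE-1a arm is LINE-1a 3 alone, the only male, so such values describe that library against the male dCas libraries and do not adjust the group comparison. Among segments its medians were 0.0059 in alpha and 0.075 in gamma B. Calls of members came only from DESeq2, which made 1 (Pcdhb22) with rows and 1 with segments. Over all features 23 were called, against 36 with libraries scaled to equal totals, 142 by DESeq2, 3 with sex as a covariate and 11 to 40 when leaving out 1 library each. Equal totals moved the median of all features to 0.15 and that of the members to -0.45. The alpha rows' median was -0.41 with the trend in gene span and exonic share removed. The other medians were then -0.58 in beta, -0.71 in gamma A, -0.70 in gamma B and -0.64 in C-type rows.

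The replicate block left 0 members called, with a smallest adjusted p of 0.249 by limma and 24 features called in all. Since the labels do not say that shared numbers pair the mice, this says nothing of a weaker effect.

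Leaving out 1 library each, the class medians ran from -0.31 to -0.15 in alpha rows, -0.83 to -0.36 in beta, -0.77 to -0.31 in gamma A rows, -0.78 to -0.31 in gamma B rows and -0.93 to -0.40 in C-type rows; as segments, from -0.40 to -0.17 in alpha, -0.69 to -0.19 in gamma A, -0.36 to -0.02 in gamma B and -0.93 to -0.45 in C-type. The end nearest 0 came without LINE-1a 2 in beta and gamma rows. Of 539 alternatives for the 30 named rows 531 kept direction and call, 7 reversed and 1 became called. As segments, the direction turned for Pcdha7 (0.26), Pcdhga5 (0.076), Pcdhgb7 (0.19), Pcdhga11 (0.13) and Pcdhga12 (0.38), since the rows hold the reads downstream. Pcdhb18 ran from -0.083 to 0.16 over left-out libraries.

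Of 231 alternatives for the 21 named segments 16 reversed. Over left-out libraries Pcdha9 ran from -0.36 to 0.23 (0.14 without dCas 3), Pcdhgb2 from -0.77 to 0.11, Pcdhgb4 from -0.31 to 0.26 (0.074 without dCas 3), Pcdhgb7 from -0.070 to 0.49 (-0.0569 without LINE-1a 3) and Pcdhga11 from -0.024 to 0.41. With sex as a covariate Pcdha9 was 0.0607, Pcdha11 0.0059, Pcdha12 0.17, Pcdhgb2 0.075 and Pcdhgb4 0.46. With equal totals Pcdha9 was 0.00864 and Pcdhgb4 0.067, and by edgeR Pcdhgb4 was 0.020. The cause was not tested. Segments of few reads limit what can be read from single alpha and gamma B promoters.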
